A study of Rattus norvegicus with 18 samples.

Results

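The interleukin-6 family was followed through 10 genes, the 5 cytokines Il6, Lif, Il11, Osm and Clcf1 and the 5 receptor genes Il6r, Il6st, Lifr, Osmr and Cntfr. They were chosen by symbol from the count tables of rat astrocytes and microglia, and all 10 were among the 16704 symbols that the tables of both cell types share. Cytokines of this family bind a receptor complex that contains gp130, the shared signalling chain encoded by Il6st, or a chain related to it, and the complex activates Janus kinases and the transcription factor STAT3. Most cells respond to interleukin-6 only where they also carry its own binding chain, encoded by Il6r, or where that chain reaches them in soluble form after shedding by a protease. In the brain these cytokines are known as signals between glial cells during inflammation and injury, and leukemia inhibitory factor and ciliary neurotrophic factor receptor ligands also act on neurons and on astrocyte differentiation.

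The 18 libraries came from primary glial cultures of wild-type Sprague-Dawley rat pups at postnatal day 2, with 3 libraries in each of 6 groups. Astrocytes and microglia were either left untreated as control, or received 25 µM Aβ42 fibrils or 25 µM Aβ40 fibrils for 24 h. Aβ42 and Aβ40 are the longer and the shorter of the main amyloid-β peptides, and both were added as preformed fibrils. The cells came from cortex freed of meninges, the microglia were shaken off mixed glial cultures in which the astrocytes stayed behind, and the cells were without serum before treatment. The labels do not say whether the 3 replicates were separate cultures or animals, so the p-values measure the spread between these libraries, which may be technical. In bulk RNA, fewer cells of a type cannot be told apart from less RNA in each cell.

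The libraries held between 3674043 and 19013919 counts on genes in astrocytes and between 2271834 and 22274367 in microglia. Aβ42 replicate 1 of microglia, with 2613723 counts, had far fewer than replicates 2 and 3 of its group, and leaving out single libraries moved the number of genes that differed between the fibrils in microglia from 2198 to between 99 (without Aβ42 replicate 3) and 6004 (without Aβ42 replicate 1). The 8 astrocyte markers summed to 8517 to 10216 CPM, counts scaled to a library of 1000000, in control astrocytes and to 195 to 219 CPM in control microglia. The 8 microglia markers summed to 5696 to 6694 CPM in control microglia and to 284 to 300 CPM in control astrocytes. The sum of the microglia markers in astrocytes was lower after treatment, at 53.7 to 79.6 CPM with Aβ42 fibrils and 31.2 to 46.1 CPM with Aβ40 fibrils. Levels are given as CPM of the scaled library, and compare a gene between samples but not with another gene, since gene length was not taken into account. A count of 3 corresponded to 0.16 to 0.835 CPM in astrocytes and to 0.130 to 1.38 CPM in microglia. Fold changes are log2 values fitted to the counts with edgeR's quasi-likelihood test, with their standard error (SE), and a gene was called higher or lower at an adjusted p-value under 0.05 over all tested genes.

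The promoter sequences of Il6, Il11 and Osmr are shown first. Among the promoters available, these are the ones that matched any of 5 short letter patterns that inflammatory transcription factors are known to bind. They were thus set apart by the patterns, not by their response. A RefSeq table of the rat assembly GRCr8 held the 250 bases before the start of 6 of the 10 genes, Il6, Il11, Il6r, Il6st, Lifr and Osmr. Capitals mark matches, on either strand, to a 10-letter NF-kB motif with 1 free position, TGANTCA for AP-1, TTGCNNAA for C/EBP, TGACGTCA for the cyclic AMP response element and TTCNNNGAA for STAT factors. The marked patterns do not overlap each other. The sequences of Il6 (chr4:5894576-5894825, minus strand), Il11 (chr1:78098372-78098621, plus strand) and Osmr (chr2:57688562-57688811, minus strand) read 5′ to 3′ along the gene.
Il6: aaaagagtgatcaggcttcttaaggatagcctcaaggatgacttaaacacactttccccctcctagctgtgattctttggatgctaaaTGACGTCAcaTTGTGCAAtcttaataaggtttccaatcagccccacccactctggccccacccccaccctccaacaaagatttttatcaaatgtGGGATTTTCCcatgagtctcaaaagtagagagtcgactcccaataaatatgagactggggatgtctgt
Il11: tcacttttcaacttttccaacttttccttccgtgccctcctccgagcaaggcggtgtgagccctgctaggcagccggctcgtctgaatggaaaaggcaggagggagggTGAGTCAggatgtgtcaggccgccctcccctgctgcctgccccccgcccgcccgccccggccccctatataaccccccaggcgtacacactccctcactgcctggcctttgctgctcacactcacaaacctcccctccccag
Osmr: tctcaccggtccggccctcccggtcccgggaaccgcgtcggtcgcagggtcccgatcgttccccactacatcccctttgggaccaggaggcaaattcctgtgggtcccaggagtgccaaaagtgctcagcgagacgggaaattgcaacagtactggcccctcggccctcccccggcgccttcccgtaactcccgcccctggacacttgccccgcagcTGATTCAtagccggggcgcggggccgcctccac
The Il6 window held the NF-kB pattern at -68 to -59 from the start, C/EBP at -152 to -145 and the cyclic AMP response element at -162 to -155. These patterns were in 0.314%, 9.22% and 1.59% of the 33469 promoters of the table. The AP-1 pattern, in 6.34% of promoters, lay at -142 to -136 in Il11 and at -33 to -27 in Osmr. The STAT pattern, in 7.67% of promoters, matched in none of the 6 windows, and the windows of Il6r, Il6st and Lifr held none of the 5 patterns, which says only that these letters are not there.

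In astrocytes the Aβ42 fibrils were accompanied by higher Il6, Lif, Il11 and Clcf1 among the cytokines and higher Il6r, Il6st and Osmr among the receptors. These were 7 of the 9 members tested, where 16.5% of all 11690 tested genes were called higher. With Aβ40 fibrils 5 of the 9 were higher, Il6, Lif, Il6r, Il6st and Osmr, where 14.9% of all tested genes were. The median log2 fold change of the tested members was 1.22 with Aβ42 and 1.19 with Aβ40 fibrils, beside medians over all tested genes of -0.0047 and 0.0017. By edgeR 0 members were lower with either fibril, where 20.4% of all tested genes were lower with Aβ42 and 18.4% with Aβ40 fibrils, the count at an unadjusted p-value under 0.05 was 0 with Aβ42 and 1 with Aβ40 fibrils, and DESeq2 also called 0. Both comparisons share the control libraries. Osm was not tested in astrocytes because its counts were too low to pass the filter, while Il6 passed it only through the treated libraries, so that it had to differ.

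In microglia members were called in both directions, and larger shares of all tested genes were called than in astrocytes. There Lif and Il11 had 0 and Il6 and Osmr 2 control libraries at the level the filter asks for in 3 libraries, so that these 4 also passed only through the treated libraries. With Aβ42 fibrils all 5 cytokines, Il6st, Osmr and Cntfr were higher, 8 of 10 members where 27.1% of all 10837 tested genes were called higher. Il6r and Lifr were lower, 2 members where 26.6% of all tested genes were called lower, so no more than that share. The call of Lifr was lost in several alternative fits. With Aβ40 fibrils the same 8 genes were higher, beside 19.6% of all tested genes, and Il6r alone was lower, beside 21.4%. The members' median log2 fold changes were 2.21 and 1.83, beside 0.0096 and 0.0054 over all tested genes. At a fold change of 5 or more, Il6, Lif, Il11, Clcf1 and Osmr were higher with each fibril, 5 of 10 members where 3.69% of all tested genes passed with Aβ42 and 3.36% with Aβ40 fibrils. Of these 5 only Clcf1 had all its control libraries at the filter level. The 4 others entered through their treated libraries, so the counts of higher members are no test against these shares. For the same reason the members' medians are no test against the medians over all tested genes. In astrocytes only Il6 and Lif passed at this fold, 2 of 9 members beside 3.03% and 2.82% of all tested genes.

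Markers of other cell types moved in the same microglia libraries. The 6 fibroblast markers summed to 59.8 to 75.1 CPM in control, 138 to 165 CPM with Aβ42 and 121 to 128 CPM with Aβ40 fibrils. The rise lay in Dcn, which encodes the matrix proteoglycan decorin and went from a mean of 0.427 CPM to 71.1 and 64.6 CPM (adjusted p = 3.83e-09 and 5.83e-09), in Lum, from 1.31 CPM to 7.05 and 6.47 CPM (adjusted p = 4.7e-06 and 4.05e-05), and with Aβ42 fibrils in the collagen gene Col1a1, from 44.9 to 63.5 CPM (adjusted p = 0.0325). Pdgfrb was lower with both fibrils, from 6.04 CPM to 2.54 CPM with each (adjusted p = 7.75e-04 and 0.0102), and Col3a1, at 16.0 CPM in control, was at 8.92 CPM with Aβ42 (adjusted p = 0.09) and lower, at 3.36 CPM, with Aβ40 fibrils (adjusted p = 7.81e-04). Col1a2 was too low to be tested, and in 4 of the 9 libraries 1 of the 6 markers was at 0. In astrocytes the same 6 markers summed to 211 to 246 CPM in control and to 187 to 276 CPM after treatment. In microglia the 8 oligodendrocyte lineage markers summed to 1963 to 2167 CPM in control and 2180 to 2833 CPM with Aβ42 fibrils. With Aβ40 fibrils they were at 2206 to 2666 CPM. In astrocytes they were at 1725 to 2573 CPM in control, 1272 to 1372 CPM with Aβ42 and 1346 to 1366 CPM with Aβ40. The 5 neuron markers were at 189 to 210 CPM in control microglia and 211 to 328 CPM after treatment. In astrocytes these were at 481 to 520 CPM in control and 233 to 342 CPM after treatment. The part of other cells in the values of the family was not tested in either cell type.

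**Figure D1:**
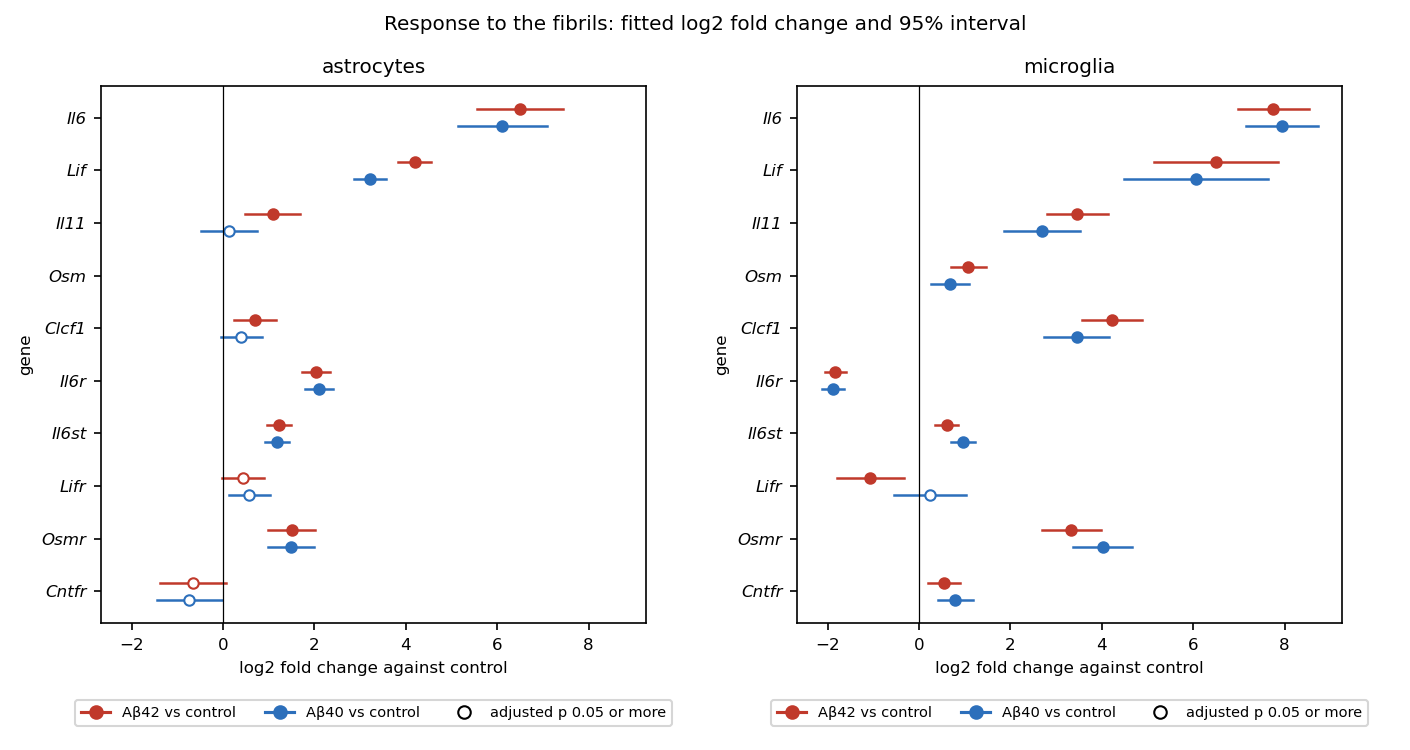
Fitted log2 fold change against control (x axis) of each member (y axis) with Aβ42 (red) and Aβ40 fibrils (blue), in astrocytes (left) and microglia (right), 3 libraries a group. Bars are 95% intervals of the single gene, filled points have an adjusted p-value under 0.05, and Osm has no point in astrocytes because it was not tested. Il6r lies above 0 in astrocytes (2.04 and 2.10) and below 0 in microglia (-1.83 and -1.88).

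Il6 encodes interleukin-6, the inflammatory cytokine after which the family is named. In control astrocytes it was listed at 0, 0 and 0.141 CPM, the last from 2 counts. With Aβ42 fibrils the libraries were at 8.10, 9.10 and 10.6 CPM, and with Aβ40 fibrils at 7.27, 7.65 and 6.04 CPM. All 6 treated libraries were above all controls, and the Aβ42 libraries lay above the Aβ40 libraries. Set against the 2 control counts, the summed counts were 99.3 times higher with Aβ42 fibrils (95% counting interval 27.2 to 823) and 77.1 times higher with Aβ40 fibrils (21.1 to 639). The adjusted p-values were 7.22e-07 and 1.55e-06. The fitted log2 fold changes of 6.51 and 6.11 rose to 9.59 and 9.20 without control replicate 3, the only control library with a count.

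In microglia Il6 reached far higher levels. The control libraries were at 2.12, 1.93 and 0.153 CPM, from 18, 10 and 1 counts. The Aβ42 libraries were at 380, 253 and 303 CPM and the Aβ40 libraries at 340, 312 and 413 CPM, so that the treated groups overlapped each other and stood apart from the controls. Il6 was higher by 7.75 on the log2 scale with Aβ42 fibrils (SE 0.36, adjusted p = 5.35e-09), a fitted 216-fold difference, and 7.94 with Aβ40 fibrils (SE 0.36, adjusted p = 5.65e-09), a fitted 246-fold difference. Without control replicate 1 the log2 values were 8.35 and 8.55, and without control replicate 3 they were 7.25 and 7.45. On a scale common to all 18 libraries, Il6 in Aβ42-treated astrocytes was 2.52% of its level in Aβ42-treated microglia, and the summed microglia markers there were 2.35% of theirs. With Aβ40 fibrils the corresponding shares were 1.68% for Il6 and 1.26% for the markers, and in control cells 2.78% and 4.01%. In the astrocytes 1 of the 8 microglia markers was at 0 in Aβ42 replicates 2 and 3 and in Aβ40 replicate 1, and 0 markers in the 6 other libraries. Most of the marker sum in treated astrocytes was Cd68, at a mean of 45.8 of 65.0 CPM with Aβ42 and 23.8 of 39.1 CPM with Aβ40 fibrils. Csf1r was at 4.97 and 2.95 CPM there, from 124 CPM in control, and Cx3cr1 at 0.023 and 0.040 CPM, from 26.0 CPM. The percentages of the sum thus rest mainly on 1 marker. The part of microglial RNA in the astrocyte values of Il6 was not tested.

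Lif encodes leukemia inhibitory factor, which signals through the receptor chain of Lifr paired with gp130. In astrocytes it stood at 5.29, 5.74 and 4.43 CPM in control, at 93.2, 83.6 and 98.5 CPM with Aβ42 fibrils and at 45.2, 46.5 and 48.4 CPM with Aβ40 fibrils. The 3 groups were fully separated, with the Aβ42 libraries highest. The log2 fold change against control was 4.20 with Aβ42 fibrils (SE 0.16, adjusted p = 1.43e-08) and 3.22 with Aβ40 fibrils (SE 0.16, adjusted p = 9.83e-08), or 18.3-fold and 9.33-fold. In microglia Lif was near the detection limit in control, at 0.236, 0 and 0 CPM, with 2 counts in all. It was at 7.60, 8.96 and 12.7 CPM with Aβ42 fibrils and at 11.3, 6.04 and 4.14 CPM with Aβ40 fibrils, the last from 9 counts. All 6 treated libraries were above the controls, and the fibril groups overlapped. The summed counts were 105 times the control level with Aβ42 fibrils (95% counting interval 29.0 to 872, adjusted p = 3.28e-06 by edgeR) and 77.8 times with Aβ40 fibrils (20.9 to 653, adjusted p = 2.65e-05). Without control replicate 1, which held both control counts, the fitted log2 fold changes moved from 6.50 and 6.06 to 9.39 and 8.96.

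Il11 encodes interleukin-11, whose own binding chain is encoded by Il11ra1. Control astrocytes were at 6.96, 9.33 and 3.87 CPM, Aβ42-treated astrocytes at 14.6, 12.6 and 12.1 CPM and Aβ40-treated astrocytes at 7.27, 6.90 and 6.24 CPM. Only the Aβ42 libraries lay above the controls, with a log2 fold change of 1.09 (SE 0.27, adjusted p = 0.00899), and the Aβ40 value was 0.13 (SE 0.28, adjusted p = 0.753). Without control replicate 3 the Aβ40 value was -0.27. In microglia Il11 was at 0.589, 0.773 and 0.458 CPM in control, from 3 to 5 counts a library, at 7.20, 6.80 and 6.44 CPM with Aβ42 fibrils and at 5.07, 3.80 and 2.30 CPM with Aβ40 fibrils. The groups did not overlap, and the log2 fold changes were 3.46 (SE 0.31, adjusted p = 1.58e-06) and 2.70 (SE 0.38, adjusted p = 1.13e-04).

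Osm encodes oncostatin M, a cytokine made mostly by myeloid cells that signals through Osmr and gp130. In astrocytes no library held more than 8 counts of it, and levels ran from 0 to 0.557 CPM in all groups. In microglia it was at 9.07, 8.11 and 9.30 CPM in control, at 24.4, 15.8 and 19.0 CPM with Aβ42 fibrils and at 14.0, 14.5 and 13.8 CPM with Aβ40 fibrils. The 3 groups did not overlap. The difference from control was 1.08 (log2) with Aβ42 fibrils (SE 0.17, adjusted p = 2.27e-04) and 0.67 with Aβ40 fibrils (SE 0.19, adjusted p = 0.0143). Without Aβ40 replicate 2 the latter was 0.65 with an adjusted p of 0.0562.

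Clcf1 encodes cardiotrophin-like cytokine factor 1, a ligand of the Cntfr complex. In astrocytes the controls were at 58.4, 36.6 and 66.0 CPM, the Aβ42 libraries at 93.7, 93.3 and 76.6 CPM and the Aβ40 libraries at 61.7, 81.8 and 71.1 CPM. Only the Aβ42 libraries were all above the controls, with a log2 fold change of 0.70 (SE 0.21, adjusted p = 0.0207), while the Aβ40 value was 0.41 (SE 0.21, adjusted p = 0.16). Without Aβ42 replicate 1 or 2 the adjusted p of the first was 0.0592 or 0.0699. In microglia Clcf1 was at 2.47, 2.32 and 2.14 CPM in control, at 25.2, 42.6 and 57.2 CPM with Aβ42 fibrils and at 24.6, 29.5 and 21.1 CPM with Aβ40 fibrils. All treated libraries were above the controls. The log2 fold changes were 4.22 (SE 0.30, adjusted p = 2.61e-07) and 3.45 (SE 0.33, adjusted p = 3.88e-06).

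**Figure D2:**
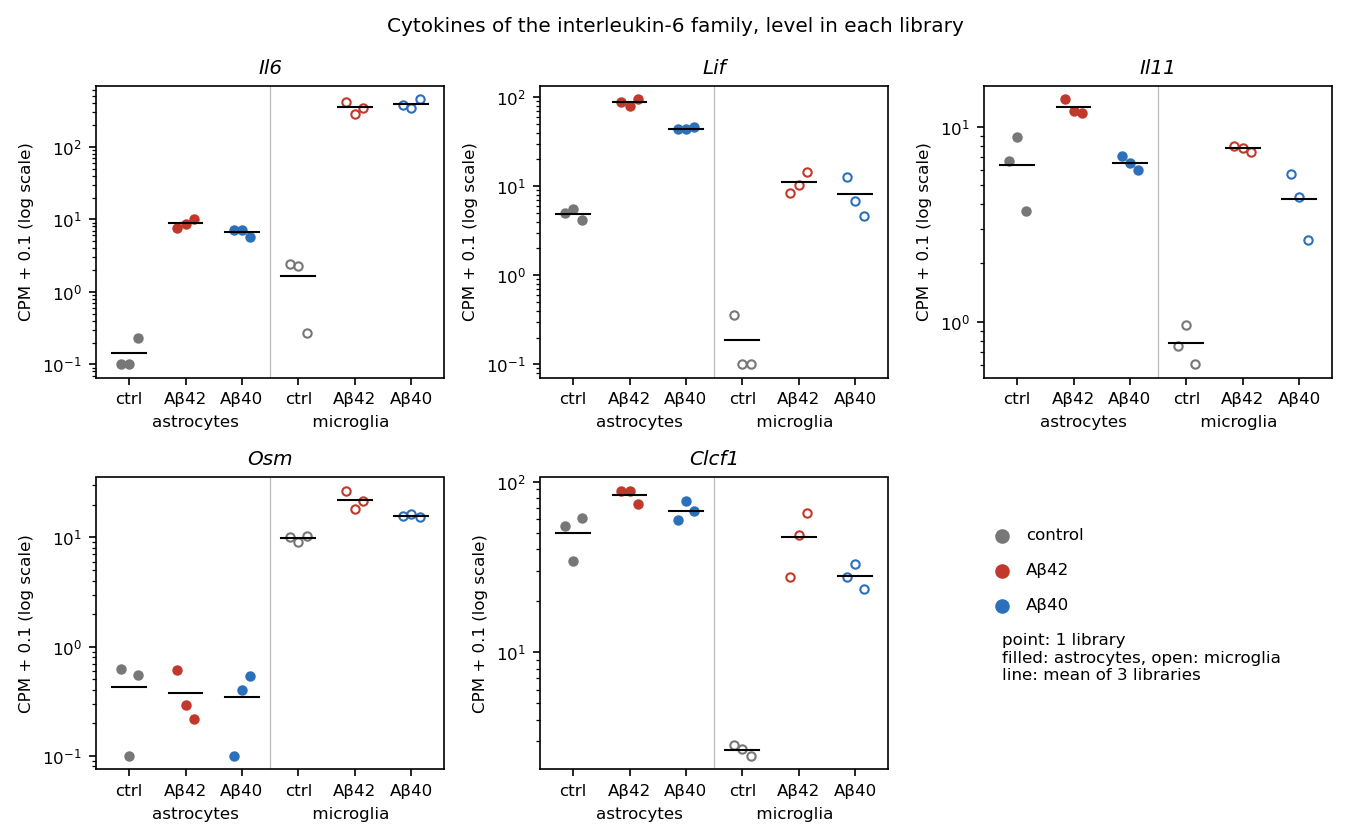
Level of the 5 cytokine genes in each of the 18 libraries, as CPM on the scale common to both cell types plus 0.1, on a log axis (y), by cell type and treatment (x). Each point is 1 library and each line the mean of 3. Mean Il6 was 394 CPM with Aβ40 and 350 CPM with Aβ42 fibrils in microglia and 6.61 and 8.80 CPM in astrocytes, whereas mean Lif was highest in Aβ42-treated astrocytes (87.1 CPM).

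Il6r encodes the chain that binds interleukin-6 itself, and it went in opposite directions in the 2 cell types. Control astrocytes were at 18.4, 20.8 and 20.8 CPM, Aβ42-treated astrocytes at 81.6, 90.6 and 75.1 CPM and Aβ40-treated astrocytes at 83.8, 93.3 and 81.2 CPM. The treated libraries were all above the controls and overlapped each other, with log2 fold changes of 2.04 (SE 0.14, adjusted p = 8.35e-07) and 2.10 (SE 0.14, adjusted p = 7.71e-07). Control microglia were at 156, 147 and 172 CPM, Aβ42-treated microglia at 45.2, 42.6 and 45.8 CPM and Aβ40-treated microglia at 43.2, 39.6 and 46.4 CPM. Here the treated libraries were all below the controls, and the log2 differences came to -1.83 (SE 0.11, adjusted p = 3.91e-08) and -1.88 (SE 0.11, adjusted p = 5.7e-08). The summed microglia markers were also lower in the treated microglia, at 1914 to 2862 CPM with Aβ42 and 2449 to 2974 CPM with Aβ40 fibrils, and their part in the fall of Il6r was not tested. In astrocytes too the summed microglia markers were lower with both fibrils, although Cd68 was not called with Aβ42 fibrils (-0.52, adjusted p = 0.124). The part of these markers' cells in the astrocyte values of Il6r was not tested.

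Il6st encodes gp130, the signalling chain that the receptors of the family share. In astrocytes it was at 425, 486 and 410 CPM in control, at 967, 1042 and 1075 CPM with Aβ42 fibrils and at 1102, 946 and 965 CPM with Aβ40 fibrils. In microglia the controls were at 218, 215 and 216 CPM, the Aβ42 libraries at 397, 299 and 295 CPM and the Aβ40 libraries at 407, 414 and 442 CPM. In both cell types all treated libraries were above the controls. The log2 fold changes in astrocytes were 1.22 (SE 0.12, adjusted p = 1.24e-05) and 1.19 (SE 0.12, adjusted p = 1.67e-05), and in microglia 0.60 (SE 0.12, adjusted p = 0.00118) and 0.96 (SE 0.12, adjusted p = 4.35e-05).

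Osmr encodes the receptor chain for oncostatin M. In astrocytes it was at 36.2, 76.8 and 50.6 CPM in control, at 140, 156 and 168 CPM with Aβ42 fibrils and at 175, 142 and 143 CPM with Aβ40 fibrils. In microglia it was at 2.71, 4.25 and 1.68 CPM in control, at 41.2, 26.1 and 22.9 CPM with Aβ42 fibrils and at 40.5, 46.7 and 49.6 CPM with Aβ40 fibrils. The treated libraries were above the controls in both cell types and overlapped between the fibrils. Its log2 differences from control came to 1.5 and 1.49 in astrocytes (SE 0.23 each, adjusted p = 3.85e-04 and 4.41e-04) and 3.34 and 4.02 in microglia (SE 0.29 each, adjusted p = 1.5e-06 and 3.62e-07).

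Lifr encodes the receptor chain for leukemia inhibitory factor and was measured at low levels. In astrocytes it was at 3.90, 5.51 and 6.82 CPM in control, at 7.21, 7.18 and 9.01 CPM with Aβ42 fibrils and at 8.83, 7.97 and 8.90 CPM with Aβ40 fibrils. The treated libraries lay above the controls, but the log2 fold changes of 0.44 (SE 0.21, adjusted p = 0.132) and 0.58 (SE 0.21, adjusted p = 0.0524) missed the threshold. Without control replicate 3 they were 0.71 (adjusted p = 0.0382) and 0.85 (adjusted p = 0.0179), and without control replicate 1 they were 0.31 and 0.44. In microglia it was at 3.77, 4.44 and 3.36 CPM in control, at 3.60, 2.12 and 1.08 CPM with Aβ42 fibrils and at 4.10, 3.80 and 6.44 CPM with Aβ40 fibrils. Aβ42 replicate 1, with 9 counts, lay within the controls. Against control this was a log2 difference of -1.06 with Aβ42 fibrils (SE 0.34, adjusted p = 0.0191) and 0.24 with Aβ40 fibrils (SE 0.36, adjusted p = 0.64). The first had an adjusted p of 0.0597, 0.0649 and 0.133 without control replicate 1, control replicate 2 and Aβ42 replicate 3, and of 0.0509 by DESeq2.

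Cntfr encodes the binding chain for ciliary neurotrophic factor, which is anchored to the membrane and signals with Lifr and gp130. In control astrocytes replicate 2 was at 13.4 CPM and replicates 1 and 3 at 37.0 and 42.5 CPM. The treated libraries, at 22.9, 20.2 and 16.8 CPM with Aβ42 fibrils and 16.8, 21.3 and 18.5 CPM with Aβ40 fibrils, lay between them. On the log2 scale they differed from control by -0.65 (SE 0.32, adjusted p = 0.143) and -0.74 (SE 0.32, adjusted p = 0.105). Without control replicate 2 they were -0.99 (adjusted p = 1.37e-04) and -1.08 (adjusted p = 6.97e-05), so the call in astrocytes turned on this library. Without control replicate 3 they were -0.31 and -0.40. In microglia Cntfr was at 10.6, 12.2 and 9.0 CPM in control, at 12.8, 15.3 and 16.6 CPM with Aβ42 fibrils and at 16.4, 19.2 and 19.8 CPM with Aβ40 fibrils. All treated libraries were above the controls, with log2 fold changes of 0.54 (SE 0.16, adjusted p = 0.0133) and 0.80 (SE 0.17, adjusted p = 0.00279). The first had an adjusted p of 0.058 without control replicate 3 and 0.0769 without Aβ42 replicate 3.

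**Figure D3:**
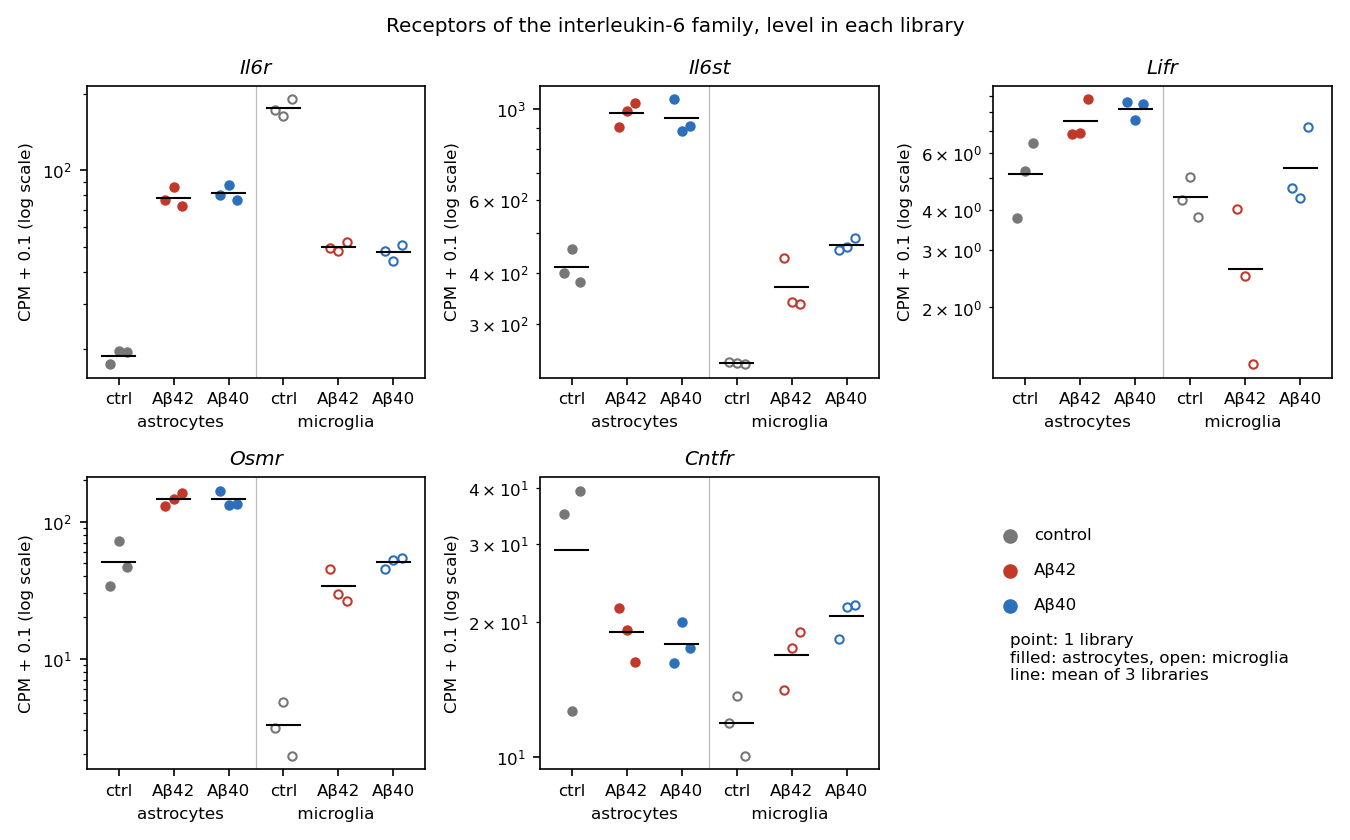
Level of the 5 receptor genes in each of the 18 libraries, as CPM on the scale common to both cell types plus 0.1, on a log axis (y), by cell type and treatment (x). Each point is 1 library and each line the mean of 3. Mean Il6r was highest in control microglia (176 CPM) and lowest in control astrocytes (18.7 CPM), and the 4 treated groups lay between, from 47.8 to 81.3 CPM.

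The fibrils were then compared with each other. In astrocytes Lif was the only member called, higher with Aβ42 than with Aβ40 fibrils by 0.97 on the log2 scale (95% interval 0.69 to 1.26, adjusted p = 0.0208). Of all 11690 tested genes 0.0855% were called in this comparison, 10 genes, and 0.0599% were higher with Aβ42 fibrils. All 3 Aβ42 libraries were above all 3 Aβ40 libraries, and the difference stayed between 0.91 and 1.03 when single libraries were left out, but its adjusted p then lay between 0.132 and 0.263, and with the replicate block it was 0.241. Il11 was higher with Aβ42 fibrils by a similar log2 difference of 0.96 (95% interval 0.41 to 1.5) that missed the threshold over all genes (adjusted p = 0.236). In a fit of the 2 fibril groups alone Il11 had an adjusted p of 0.00816. The 95% intervals of the other members ran from -0.03 to 0.82 for Il6, from -0.15 to 0.74 for Clcf1, from -0.34 to 0.21 for Il6r, from -0.22 to 0.29 for Il6st, from -0.56 to 0.28 for Lifr, from -0.48 to 0.49 for Osmr and, widest, from -0.62 to 0.79 for Cntfr.

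In microglia Il11 and Clcf1 were higher and Lifr was lower with Aβ42 than with Aβ40 fibrils, where 11.3% of all 10837 tested genes were called higher and 9.01% lower. The log2 differences were 0.76 for Il11 (95% interval 0.23 to 1.30, adjusted p = 0.0457), 0.77 for Clcf1 (0.26 to 1.29, adjusted p = 0.0403) and -1.30 for Lifr (-2.12 to -0.48, adjusted p = 0.0357). The libraries of Clcf1 overlapped, those of Il11 and Lifr did not. These 3 calls were lost without Aβ42 replicate 2 or 3 and without Aβ40 replicate 1, 2 or 3, where the adjusted p-values ran from 0.0785 to 0.209. They were also lost with the replicate block (0.0597 for Il11, 0.0755 for Clcf1 and 0.0689 for Lifr) and in a fit of the 2 fibril groups alone (0.0914, 0.102 and 0.0878). The call of Il11 was lost as well with scaling by library totals (0.0509), without a filter (0.0533) and by DESeq2 (0.104). Without Aβ42 replicate 1, the library with the fewest counts of its group, Il6st at -0.50 (adjusted p = 6.21e-05) and Osmr at -0.88 (adjusted p = 1.08e-04) were called lower as well, from -0.36 (adjusted p = 0.0541) and -0.68 (adjusted p = 0.0507) with all libraries. DESeq2 called both (adjusted p = 0.0406 and 0.0486), scaling by library totals called Il6st (0.0388) and the fit without a filter called Osmr (0.0405). For the members that remain the interval of the difference was -0.68 to 0.30 for Il6, -0.26 to 1.13 for Lif, 0.02 to 0.80 for Osm (adjusted p = 0.108), -0.19 to 0.30 for Il6r and -0.61 to 0.10 for Cntfr.

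**Figure D4:**
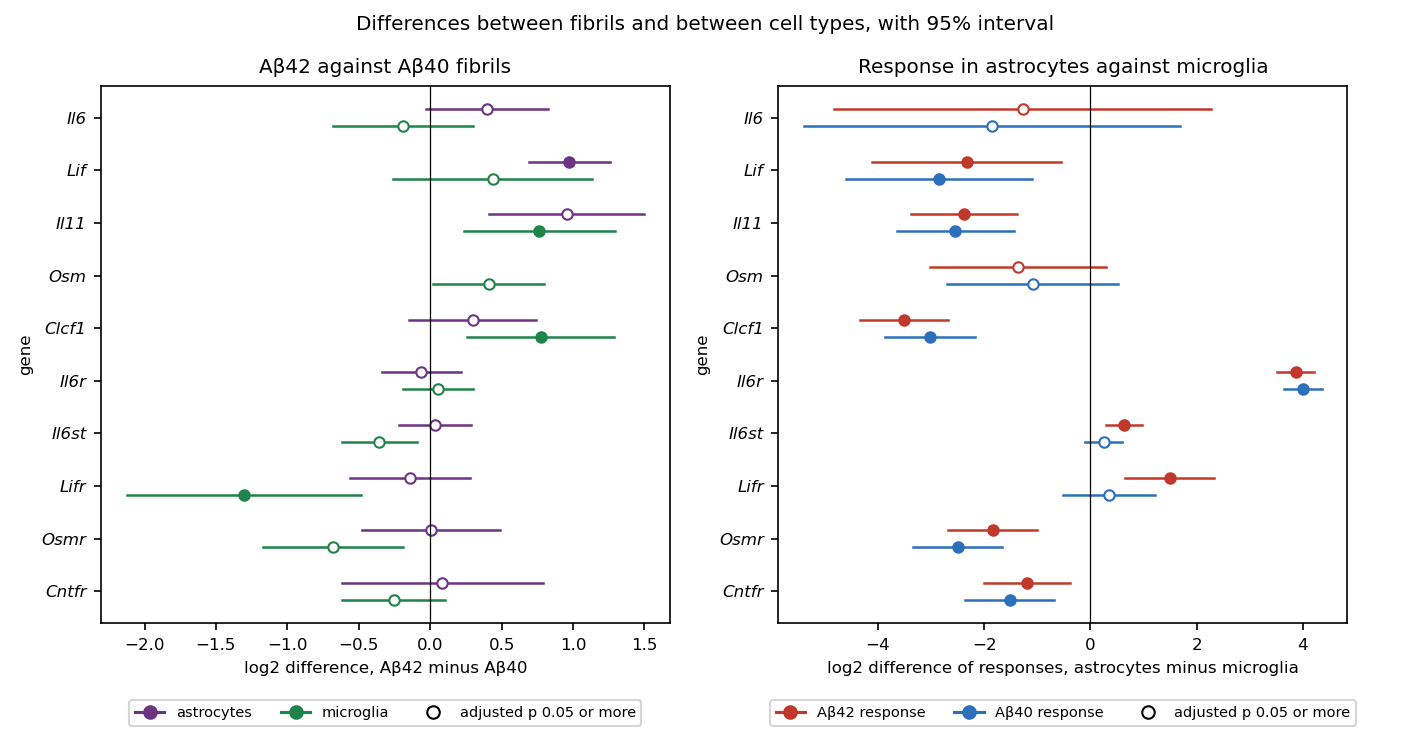
Left, fitted log2 difference of Aβ42 minus Aβ40 fibrils (x axis) for each member (y axis) in astrocytes (purple) and microglia (green). Right, log2 difference of the responses to Aβ42 (red) and Aβ40 fibrils (blue), astrocytes minus microglia, with bars for 95% intervals of the single gene and filled points for an adjusted p-value under 0.05. Il6r stands apart on the right at 3.87 and 4.0, and Clcf1 is lowest there at -3.51 and -3.03.

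The members' responses were compared between the cell types by a term for the interaction between treatment and cell type, fitted on the 18 libraries together. For Aβ42 fibrils 3 of 10 members had the higher response in astrocytes, beside 17.9% of all 11581 tested genes, and 5 the lower, beside 19.3%. For Aβ40 fibrils these were 1 and 5 members, beside 16.5% and 16.0%. Il6r differed by 3.87 with Aβ42 (SE 0.17, adjusted p = 4.94e-12) and by 4.0 with Aβ40 fibrils (SE 0.17, adjusted p = 3.58e-12). The responses of Clcf1 (-3.51, adjusted p = 1.1e-06, and -3.03, adjusted p = 1.13e-05), Il11 (-2.38, adjusted p = 6.58e-04, and -2.54, adjusted p = 9.82e-04) and Osmr (-1.84, adjusted p = 0.00121, and -2.5, adjusted p = 7.49e-05) were larger in microglia with both fibrils. Il6 had a wide interval with each fibril, -4.84 to 2.28 and -5.39 to 1.68, and was near 0 in control astrocytes. Without astrocyte control replicate 3 its difference turned from -1.28 to 1.54 with Aβ42 and from -1.85 to 0.97 with Aβ40 fibrils. The values for Lif of -2.33 (adjusted p = 0.0368) and -2.85 (adjusted p = 0.0131) rest on 2 counts in control microglia, and moved to -5.56 and -6.08 without microglia control replicate 1. They missed the threshold without microglia control replicate 3, at adjusted p-values of 0.136 and 0.0586, and the first also without microglia control replicate 2 (0.104), astrocyte Aβ42 replicate 2 (0.0533) or microglia Aβ42 replicate 3 (0.0615).

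Among the other receptors, Il6st responded more in astrocytes with Aβ42 fibrils, by 0.63 (SE 0.16, adjusted p = 0.00511), and the difference was 0.25 with Aβ40 fibrils (adjusted p = 0.268). Lifr differed by 1.49 with Aβ42 (SE 0.40, adjusted p = 0.00645) and by 0.35 with Aβ40 fibrils (adjusted p = 0.556). Cntfr differed by -1.19 (SE 0.38, adjusted p = 0.0200) and -1.52 (SE 0.40, adjusted p = 0.00602). The first of the Cntfr values missed the threshold without astrocyte control replicate 3 (-0.86, adjusted p = 0.085), microglia control replicate 3 (0.0576) or microglia Aβ42 replicate 3 (0.0542). Osm, at -1.37 (adjusted p = 0.187) and -1.08 (adjusted p = 0.306), was not called, and was tested here only through its level in microglia.

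Without treatment, the cell types differed in most of the family. Of the 10 members 6 were higher in astrocytes, beside 34.5% of all 11581 tested genes, and 3 were higher in microglia, beside 34.2%. Cell type here cannot be told apart from the separate sets of libraries and the separate tables. Higher in astrocytes were Clcf1, with a log2 difference of 4.29 (adjusted p = 3.79e-10), Osmr at 4.03 (adjusted p = 9.02e-10), Il11 at 3.09 (adjusted p = 1.22e-06), Cntfr at 1.33 (adjusted p = 3.32e-04) and Il6st at 0.77 (adjusted p = 8.55e-06). Lif, also higher in astrocytes (adjusted p = 4.25e-07), had 40.8 times the level in summed counts against the 2 counts of microglia (95% counting interval 11.02 to 341). Il6r was higher in microglia by 3.23 on the log2 scale (astrocytes minus microglia -3.23, adjusted p = 4.04e-14) and Osm by 4.66 (-4.66, adjusted p = 1.4e-08). Osm passed the filter of this fit only through the microglia libraries, so that it had to differ. Il6 was 18.8 times higher in microglia by summed counts, 29 against 2 (95% counting interval 4.77 to 163, adjusted p = 3.59e-04 by edgeR). The 29 counts were spread as 18, 10 and 1 over the libraries, a spread that the counting interval does not cover. Control replicate 3 of microglia, at 0.169 CPM, was near control replicate 3 of astrocytes, at 0.130 CPM. Lifr, at 0.33 (95% interval -0.27 to 0.93, adjusted p = 0.318), was not called, and the libraries of Cntfr overlapped.

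On the common scale the members fell into several orders across the 6 groups. Il6 ran from Aβ40-treated microglia (394 CPM) and Aβ42-treated microglia (350 CPM), which overlapped, down to Aβ42-treated astrocytes (8.80 CPM), Aβ40-treated astrocytes (6.61 CPM), control microglia (1.56 CPM) and control astrocytes (0.043 CPM). Osm had the 3 microglia groups on top, at 22.1 CPM with Aβ42, 15.7 CPM with Aβ40 fibrils and 9.81 CPM in control, and the 3 astrocyte groups, from 0.246 to 0.326 CPM, overlapped each other. Osm in astrocytes was 1.24% to 3.33% of its level in microglia with the same treatment, while the summed microglia markers were 1.26% to 4.01%. In the treated astrocytes that sum was mostly Cd68. The part of microglial RNA in the astrocyte values of Osm was not tested. Lif was highest in astrocytes with Aβ42 fibrils (87.1 CPM) and Aβ40 fibrils (44.2 CPM), and the Aβ42-treated microglia (10.99 CPM), Aβ40-treated microglia (7.98 CPM) and control astrocytes (4.82 CPM) overlapped as neighbours above control microglia (0.087 CPM). Lif in treated microglia was 12.6% of its level in astrocytes with Aβ42 and 18.1% with Aβ40 fibrils, while the summed astrocyte markers in these microglia were 3.51% and 3.86% of theirs. The part of astrocyte RNA in the microglial values of Lif was not tested. Il11 was highest in Aβ42-treated astrocytes (12.5 CPM), then in Aβ42-treated microglia (7.64 CPM), and lowest in control microglia (0.675 CPM). The mean of Clcf1 fell from 83.3 CPM in Aβ42-treated astrocytes to 27.9 CPM in Aβ40-treated microglia over 5 groups that overlapped as neighbours, and control microglia stood below them at 2.57 CPM.

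The receptors were ordered otherwise. Il6r was highest in control microglia (176 CPM), followed by the overlapping treated astrocytes (81.3 and 78.2 CPM), the overlapping treated microglia (49.99 and 47.8 CPM) and control astrocytes (18.7 CPM). Before treatment Il6r in astrocytes was thus 10.6% of its level in microglia, and with Aβ42 and Aβ40 fibrils it was 156% and 170%. Il6st was highest in the treated astrocytes (976 and 950 CPM) and lowest in control microglia (240 CPM), with the 3 other groups overlapping as neighbours. Osmr in treated astrocytes (147 and 145 CPM) stood above control astrocytes (51.0 CPM) and Aβ40-treated microglia (50.7 CPM), which overlapped, and control microglia were lowest (3.21 CPM). The groups of Lifr overlapped from neighbour to neighbour over the whole range of means, 2.52 to 8.10 CPM, and those of Cntfr over 16.8 to 28.9 CPM. Control microglia had the lowest mean of Cntfr, 11.8 CPM. Their libraries, at 9.95 to 13.6 CPM, overlapped those of control astrocytes, at 12.6 to 39.3 CPM.

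The genes whose pattern over the 18 libraries was most like that of 4 members were sought by Pearson's r of log2 CPM, as a description over libraries that share cell type, depth and treatment. For Il6 they were Mmp13 (r = 0.988), Scin (0.988) and Csf2 (0.986), and for Lif Ttc39c (0.985), Slc20a1 (0.980) and Sox7 (0.979). For Osm LOC308990 (0.989) and Capg (0.987) were among them, and for Osmr they were Hyal1 (0.990), Fstl1 (0.986) and Bicc1 (0.984).

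The signalling genes behind the receptors were examined through lists of 39 genes, of which 38 were in the tables, all but Il27. The counts of these lists are to be read beside the shares of all tested genes, which in astrocytes were 16.5% higher and 20.4% lower with Aβ42 and 14.9% and 18.4% with Aβ40 fibrils, and in microglia 27.1% and 26.6% with Aβ42 and 19.6% and 21.4% with Aβ40 fibrils. Among 10 kinases, STATs and adaptors, 8 were higher and 1 was lower in astrocytes with Aβ42 fibrils, with a median log2 fold change of 0.97. The corresponding counts were 7 and 1 with Aβ40 fibrils (median 0.84). Stat5a (2.47, adjusted p = 4.98e-07), a transcription factor activated by Janus kinases, had the smallest p-value with Aβ42 fibrils, and the adaptor Gab1 went against the rest at -0.72 (adjusted p = 0.00174). In microglia the same list had 2 higher and 3 lower with Aβ42 fibrils (median -0.15) and 2 higher and 2 lower with Aβ40 fibrils (median -0.01), counts near those shares. Stat5a was lower there, at -1.64 (adjusted p = 1.26e-06) and -1.65 (adjusted p = 3.05e-06), the kinase Tyk2 was lower at -0.95 (adjusted p = 6.62e-04) and -1.19 (adjusted p = 2.27e-04), and the kinase Jak2 was higher at 0.58 (adjusted p = 4.83e-04) and 0.88 (adjusted p = 2.38e-05). Stat3, which carries the signal of this family to the nucleus, was higher in astrocytes by 1.05 (adjusted p = 5.42e-05) and 1.0 (adjusted p = 8.87e-05), and in microglia by 0.33 (adjusted p = 0.014) and 0.27 (adjusted p = 0.0439). The Aβ42 response of Stat5a differed between the cell types by 4.09 (adjusted p = 2.83e-11), and 8 of the 10 genes responded more in astrocytes to Aβ42 fibrils, beside 17.9% of all tested genes, and 7 to Aβ40 fibrils, beside 16.5%.

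Among 7 inhibitors of the pathway, 3 were higher and 1 was lower in astrocytes with each fibril, and in microglia 3 were higher and 2 lower with Aβ42 and 4 higher and 2 lower with Aβ40 fibrils. Over all tested genes the shares with Aβ42 fibrils were 16.5% higher and 20.4% lower in astrocytes and 27.1% and 26.6% in microglia, so that the lower counts were near them. The medians were 0.70 and 0.59 in astrocytes and 0.35 and 0.60 in microglia. Socs3, the feedback inhibitor that binds gp130, was higher in microglia by 6.39 (SE 0.22, adjusted p = 7e-10) and 6.04 (SE 0.22, adjusted p = 1.3e-09), and its values in astrocytes were 1.0 (adjusted p = 0.0942) and 0.76 (adjusted p = 0.205). The difference of its Aβ42 response between the cell types was -5.40 (adjusted p = 4.07e-07). Cish, a related feedback inhibitor, was higher in microglia by 4.17 (adjusted p = 3.97e-08) and 4.30 (adjusted p = 5.01e-08) and in astrocytes by 1.62 (adjusted p = 0.00164) and 1.11 (adjusted p = 0.017). Socs1 was higher in microglia by 37.0 times (95% counting interval 18.7 to 86.2) and 9.84 times (4.56 to 24.3) in summed counts against 8 control counts, and in astrocytes the log2 differences came to 2.04 (adjusted p = 0.0171) and 2.08 (adjusted p = 0.0164). Ptpn6, a phosphatase known mainly from blood and immune cells, was lower in astrocytes by -1.86 (adjusted p = 1.66e-05) and -1.77 (adjusted p = 2.31e-05) and in microglia by -0.93 (adjusted p = 2.39e-05) and -0.72 (adjusted p = 2.49e-04). The summed microglia markers fell in the same libraries, and their part in Ptpn6 was not tested. Pias3 was lower in microglia, at -0.46 (adjusted p = 0.00859) and -0.42 (adjusted p = 0.0262).

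Of the proteases that can shed the interleukin-6 receptor, Adam17 was higher in astrocytes with Aβ42 (1.02, adjusted p = 7.19e-05) and Aβ40 fibrils (0.64, adjusted p = 0.00215) and lower in microglia (-0.79, adjusted p = 6.59e-05, and -0.55, adjusted p = 0.00133). Its Aβ42 response differed between the cell types by 1.82 (adjusted p = 4.26e-08). Adam10 was lower in microglia with Aβ42 fibrils (-0.85, adjusted p = 9.21e-04) and not called in the 3 other comparisons with control, at -0.23 with Aβ40 fibrils in microglia and -0.21 and -0.17 in astrocytes.

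Of 12 genes that STAT3 is known to induce, 7 were higher and 2 lower in astrocytes with each fibril, with medians of 0.96 and 0.95. Of all tested genes 16.5% and 14.9% were higher there and 20.4% and 18.4% lower, so that the 2 lower genes were near that share. In microglia 9 were higher and 0 lower by edgeR with Aβ42 fibrils and 8 and 0 with Aβ40 fibrils, with medians of 1.12 and 0.71, beside 27.1% and 19.6% higher over all tested genes, and at an unadjusted p-value under 0.05 the lower counts were 0 and 1. Lcn2, which encodes the secreted iron-carrier binding protein lipocalin-2, was higher by 6.60 (adjusted p = 1.29e-08) and 6.25 (adjusted p = 1.8e-08) in astrocytes and by 5.75 (adjusted p = 4.74e-09) and 5.92 (adjusted p = 4.99e-09) in microglia. The adhesion molecule Icam1 was higher by 2.74 (adjusted p = 1.64e-07) and 2.69 (adjusted p = 2.06e-07) in astrocytes and by 1.35 (adjusted p = 6.55e-07) and 1.51 (adjusted p = 2.97e-07) in microglia. Pim1, a kinase, was higher in microglia by 3.46 (adjusted p = 2.34e-07) and 2.95 (adjusted p = 1.5e-06). Going against the rest in astrocytes were Myc, at -0.40 (adjusted p = 0.0491) and -0.62 (adjusted p = 0.00678), and Gfap, the intermediate filament of astrocytes, at -1.11 (adjusted p = 9.61e-04) and -0.85 (adjusted p = 0.00561). Gfap is also one of the 8 astrocyte markers, whose sum was lower in treated astrocytes, at 5499 to 5765 CPM with Aβ42 and 6086 to 6416 CPM with Aβ40 fibrils. These markers did not move as a set. Slc1a3, S100b, Gja1 and Sox9 were also called lower with both fibrils. Slc1a2 (1.51 and 1.41) and Aldh1l1 (1.65 and 1.44) were called higher with both, and Aqp4 was called higher with Aβ40 fibrils only (0.53).

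Among the 8 further cytokines and receptors of the family, Ebi3, a subunit of interleukin-27, was higher in astrocytes by 2.88 (adjusted p = 1.7e-06) and 2.40 (adjusted p = 8e-06) and in microglia by 2.78 (adjusted p = 9.05e-08) and 2.70 (adjusted p = 1.48e-07). Of the 6 tested in astrocytes 2 were higher with each fibril, beside 16.5% and 14.9% of all tested genes, Ebi3 and Cntf, ciliary neurotrophic factor, which was higher by 0.49 (adjusted p = 0.0336) and 0.99 (adjusted p = 7.03e-04). With each fibril 1 was lower, beside 20.4% and 18.4%, which with Aβ40 fibrils was the receptor gene Il27ra (-0.87, adjusted p = 0.0293). Of the 4 tested in microglia 1 was higher and 0 were lower with Aβ42 fibrils, also at an unadjusted p-value under 0.05, and with Aβ40 fibrils 1 was higher and 1 lower, the latter Il11ra1 (-0.92, adjusted p = 0.0404). The 1 of 4 higher lies near the 27.1% and 19.6% of all tested genes.

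Between the fibrils, 0 of the 37 listed signalling genes tested in astrocytes were called by edgeR, with 3 at an unadjusted p-value under 0.05. In microglia 4 of 35 were higher with Aβ42 fibrils and 1 was lower, where 11.3% and 9.01% of all tested genes were, so that the 4 were near the share of all genes. They were Il11ra1 by 1.05 (adjusted p = 0.0376), Socs1 by 1.76 (adjusted p = 0.0185), Cebpd, a transcription factor of the C/EBP family, by 0.81 (adjusted p = 0.0159) and the survival factor Mcl1 by 0.51 (adjusted p = 0.0311). The lower gene was Adam10, by -0.62 (adjusted p = 0.0291).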

How the data were processed

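For each of the 18 libraries the authors deposited a table of raw read counts per gene symbol, not normalized. The libraries were made with a stranded mRNA kit, and the submitters' processing notes name STAR, Salmon, DESeq2 and the rat build rn5. The counting step and its strand setting are not given in the sources used here. Reads on no gene or assignable to several were left out (26.0% to 34.2% in astrocytes, 21.7% to 24.5% in microglia).

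Counts were scaled by TMM and filtered with filterByExpr. The 9 libraries of a cell type were fitted together with edgeR 4.0.16 (glmQLFit and glmQLFTest, R 4.3.3), without covariates. Cell types were compared by fitting the 18 libraries together over the shared symbols. P-values were adjusted by the Benjamini-Hochberg method over all tested genes. Intervals are 95% intervals. Where a group held few counts, summed counts were compared with an exact binomial interval, which covers counting error only. Log2 CPM for likeness used a prior count of 2. With 3 libraries against 3, an exact two-sided permutation test cannot go below p = 0.1 and was not used. The fit was tested on simulated data.

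The members and gene lists were chosen with earlier results of these data known. All 10 members are named, and from each signalling list and comparison the 2 called genes with the smallest p-value and those that went against the majority, each then followed across comparisons. Tyk2 was named after its values were seen. A few genes that the rule selects are not reported here. Alternatives were other scalings, filters, DESeq2 1.42.0, the 2 compared groups alone, a replicate block and leaving out each library. Promoters came from a RefSeq table of GRCr8, with coordinates of that build, not of rn5.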

Additional observations from a re-analysis of the deposited data

Results flagged for a closer look

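The responses of several members differed between the cell types by the interaction test of edgeR, with differences given as astrocytes minus microglia on the log2 scale. With Aβ42 fibrils the values were 3.87 for Il6r, 1.49 for Lifr and 0.63 for Il6st, and -3.51 for Clcf1, -2.38 for Il11, -2.33 for Lif, -1.84 for Osmr and -1.19 for Cntfr. With Aβ40 fibrils they were 4.0 for Il6r, and -3.03 for Clcf1, -2.85 for Lif, -2.54 for Il11, -2.5 for Osmr and -1.52 for Cntfr. Of these 14 values, Il6r is the one in which all treated libraries of 1 cell type lay above their controls and all treated libraries of the other lay below. Whether a single sample stood apart from its group was not tested, because the groups held 3 libraries each.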

How the results depend on the processing

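The direction of every member called against control in either cell type held under each alternative that tested it. The filter of 10 counts in every library did not test Il6 in astrocytes or Il6, Lif, Il11 and Lifr in microglia. The replicate numbers gave no sign of a pairing. Deviations of same-numbered libraries correlated at -0.53 to 0.36 in astrocytes and at -0.19 to 0.22 in microglia. Those of differently numbered libraries correlated at -0.46 to 0.53 in astrocytes and at -0.21 to 0.23 in microglia. Astrocyte control replicate 2 correlated with Aβ42 replicate 3 at 0.53 and with Aβ40 replicate 1 at 0.49, and these 2 at 0.51. A grouping of libraries under other numbers was not modelled. With the replicate block, 0 members and 0 genes in all (against 1 and 10) differed between the fibrils in astrocytes, and 0 higher and 0 lower members and 752 genes (against 2, 1 and 2198) in microglia. The block also cost the call of Cntfr in the Aβ42 interaction.

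Between the fibrils, a fit of these 2 groups alone gave 2 members higher and 265 genes in astrocytes, and 0 higher, 0 lower and 106 genes in microglia. DESeq2 gave 133 genes in astrocytes, and 1 higher and 3 lower members in microglia, as well as 1 lower member with Aβ42 fibrils against control there. Scaling by library totals and no filter each gave 1 higher and 2 lower members between the fibrils in microglia. A filter of 10 counts in every library left fewer members to test. It gave 1 member at 5-fold in astrocytes with each fibril and 6 genes between the fibrils, 5 higher and 1 lower with 2 at 5-fold in microglia with Aβ42, 5 higher with 2 at 5-fold with Aβ40, 1 higher and 0 lower between the fibrils there, and 3, 3 and 1 lower members in the Aβ42 and Aβ40 interactions and between the controls.

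Leaving out single libraries gave 0 to 1 lower members in astrocytes with either fibril, 0 members and 0 to 4 genes between the fibrils, 3 to 5 lower in the Aβ42 interaction, 1 to 2 lower in microglia with Aβ42, and between the fibrils there 0 to 2 higher, 0 to 3 lower and 99 to 6004 genes. Some differences that were not called changed sign. Between the fibrils in astrocytes Osmr (0.01) was -3.57e-04 with library totals, -0.0056 with the block, and -0.0011, -0.066, -0.048 and -0.040 without Aβ42 replicates 2 and 3 and Aβ40 replicates 2 and 3, Il6st was -0.0078 and -0.011 without Aβ42 replicate 3 and Aβ40 replicate 2, and Cntfr was -0.015 without Aβ42 replicate 1. In microglia Il6r was -0.0082 without Aβ40 replicate 2. Il11 in astrocytes with Aβ40 fibrils was -0.27, and the Il6 interactions 1.54 and 0.97, without astrocyte control replicate 3. The highest values over left-out libraries were 0.11, 0.10 and 0.18 for Osmr, Il6st and Cntfr, 0.10 for Il6r and 0.52 for Il11, and the lowest Il6 interactions were -1.85 and -2.43. Depth limits the values that rest on few counts in a library, those of Il6 and Osm in astrocytes and of Il6 in control, Lif, Il11 and Lifr in microglia.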
